A study of Homo sapiens with 5 samples.

Results

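Levels of 10 genes were followed across 5 RNA libraries: NPM1, NCL, FBL, ODC1, NOP56, NOLC1, NOP16, POLR1B, RRS1 and PPAN. They were chosen by symbol, as genes of ribosome biogenesis and polyamine synthesis known as targets of the transcription factor MYC, and all 10 were found among the 19716 genes with a read in at least 1 library. The question was whether their mRNAs were also lower in the libraries in which MYC mRNA was lower.

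HEK293T, an embryonic kidney cell line with the large T antigen of SV40, was transfected with pUC19, a plasmid that encodes no fusion, or with 5 sgRNAs against uPA (the gene PLAU) together with 1 of 4 dCas9-BFP fusions. In the fusions, catalytically dead Cas9 and a blue fluorescent protein were joined to the catalytic domain of DNMT1, DNMT3A or DNMT3B, or to EGFP, which has no methyltransferase activity. Expression was transient and driven by the PGK promoter. Every group received 1 ug of plasmid with X-tremeGENE 9, and RNA was taken 48 h later. Each group had 1 library, so no group has a replicate, and a pUC19 culture differed from a fusion culture in dCas9, BFP and sgRNAs at once, which cannot be told apart. By the labels, all groups were sorted for BFP, which pUC19 cells cannot make, and how the control passed this gate is unclear.

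MYC binds DNA with its partner MAX at E-boxes, of which CACGTG is the canonical form, and raises transcription of many genes of cell growth. Ribosome biogenesis is among its best known outputs: RNA polymerase I makes the rRNA precursor in the nucleolus, small nucleolar ribonucleoproteins (snoRNPs) modify it, and assembly factors fold it into the small and large subunits. The libraries were made from poly(A) RNA, so they measured the mRNAs of these factors and not rRNA. In such bulk RNA, fewer cells with a transcript and less transcript per cell cannot be told apart.

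The libraries held 26.2 M to 36.1 M reads, the most in pUC19, and 3 reads corresponded to 0.083 to 0.114 counts per 1 M reads (CPM). In transcripts with 10 to 20 reads per kb, the mean covered part was 46.8% to 47.2% in the 3 methyltransferase libraries and 41.7% to 42.1% in EGFP and pUC19, and ratios to pUC19 rose with GC content in the 3 methyltransferase libraries (Spearman's rho of 0.25 to 0.30 across at least 12630 genes, which are not independent) and less in EGFP (0.05). Of 6 markers of HEK293T, VIM was at 437 to 599 TPM and PAX2, LHX1 and EYA1 at 3.38 to 8.46 TPM in all libraries, while the neurofilament genes NEFL (28.9 to 90.7 TPM) and NEFM (34.3 to 193 TPM) were highest in pUC19. Of 6 markers of other cell types, CD3E had no row, PTPRC, ALB and PECAM1 stayed at or under 0.88 TPM, EPCAM at 1.09 to 2.24 TPM and COL1A1 at 3.87 to 7.97 TPM. The part of these differences in the results was not tested.

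To show where MYC could bind near these genes, E-boxes were searched within 1000 bases on either side of each canonical start site in GRCh37. The hexamer CACGTG, which reads the same on both strands, was found around 7 of the 10 genes, with 16 matches in all, and in 31.1% of the same windows of 15605 genes tested. NCL held 5 matches, NOP56 and ODC1 3 each, NPM1 2, and FBL, RRS1 and POLR1B 1 each, while none was found around NOP16, NOLC1 and PPAN. For comparison, 3 or more matches were found in 1.26% of all windows. By the canonical transcripts, 10 matches lay in introns, 2 in coding sequence, 2 in noncoding parts of exons and 2 upstream. The following windows of 30 bases, in the sense direction of each gene, show matches with the hexamer in capitals.
NCL: agcgcggcctgcCACGTGggccgcgccgcg
NPM1: aaccgctgggagCACGTGgttgccacgtgg
NOP56: acagcgcgctccCACGTGgccggccgagcg
FBL: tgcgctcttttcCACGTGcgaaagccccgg
ODC1, first intronic match: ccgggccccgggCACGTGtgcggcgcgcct
ODC1, next intronic match: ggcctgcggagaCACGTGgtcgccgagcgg
POLR1B: ctgacgcgggcgCACGTGgagtccttcaac
The NCL window (chr2:232328683-232328712, minus strand) lay in an intron 495 bases after the start site, and the NPM1 window (chr5:170815566-170815595, plus strand), which also holds the next match in lower case, in an intron 725 bases after it. The NOP56 window (chr20:2633643-2633672, plus strand) was intronic at 377 bases. The FBL window (chr19:40336996-40337025, minus strand) spanned the start itself, with the hexamer 6 bases after it in a noncoding part of the exon. The ODC1 windows (chr2:10588150-10588179 and chr2:10588116-10588145, minus strand) were intronic at 286 and 320 bases, and the POLR1B window (chr2:113300183-113300212, plus strand) was in coding sequence at 153 bases. A match is a description of the sequence and not evidence that MYC was bound there, and a window without one says only that these letters were not in it.

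**Figure D1:**
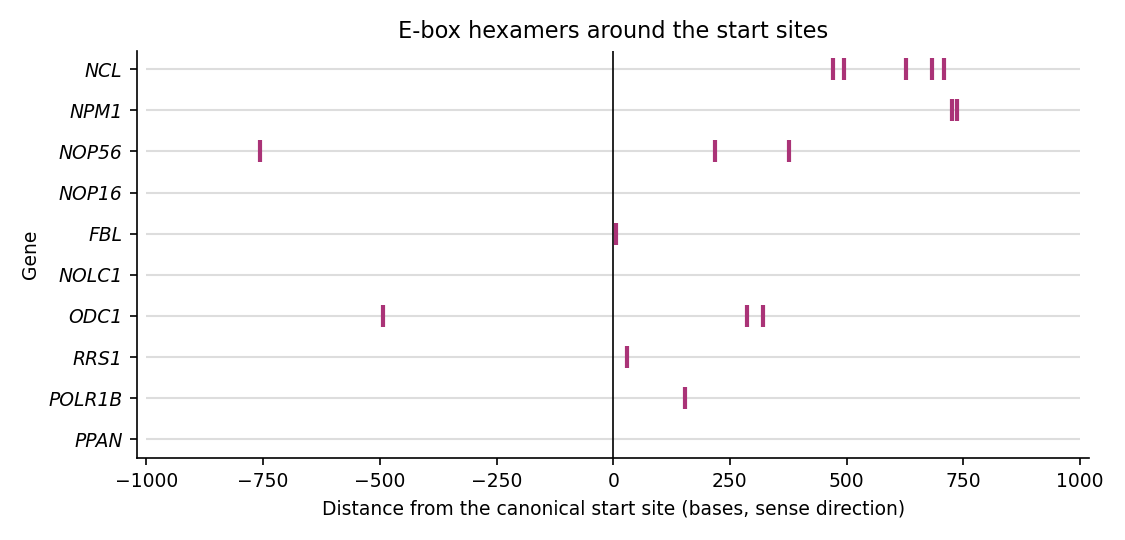
Positions of the 16 CACGTG hexamers (vertical ticks) within 1000 bases on either side of the canonical start site (vertical line at 0) of each gene, in the gene's sense direction. NCL has 5 ticks, all after the start site, and NOP16, NOLC1 and PPAN have none.

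MYC mRNA was lower in all 4 fusion libraries than in pUC19. It was at 386.8 TPM (reads per transcript length, scaled to a fixed sum per library) in pUC19, 88.2 TPM in DNMT1, 73.8 TPM in DNMT3A, 65.5 TPM in DNMT3B and 75.5 TPM in EGFP. The level in pUC19 was 4.38-fold (DNMT1) to 5.90-fold (DNMT3B) that in a fusion. The low level was therefore shared by the EGFP fusion, and DNMT3B was the lowest of the 4.

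Of the 10 genes, 8 were at a higher TPM in pUC19 than in any fusion, where 34.6% of the 16001 genes of the joint fit described below lay above all 4 fusions in CPM. For 7 of these 8, all but NOLC1, the distance from pUC19 to the nearest fusion on the log2 TPM scale was larger than the whole range of the 4 fusions, as it was for 10.3% of all those genes. The differences were small beside that of MYC. Across the 8, pUC19 was 1.07-fold (NOLC1, EGFP) to 2.26-fold (RRS1, EGFP) the level of a fusion, and POLR1B and PPAN lay within the range of the fusions. The 10 genes together took 0.631% of the reads in pUC19 and 0.398% to 0.444% in the fusions. Reads of the fused methyltransferase's own gene made up 3.5% in DNMT1, 3.2% in DNMT3A and 6.0% in DNMT3B. They lower the share of every other gene there. With totals that leave out DNMT1, DNMT3A, DNMT3B and PLAU, the log2 ratio of NCL in DNMT3B moved from -0.32 to -0.27.

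**Figure D2:**
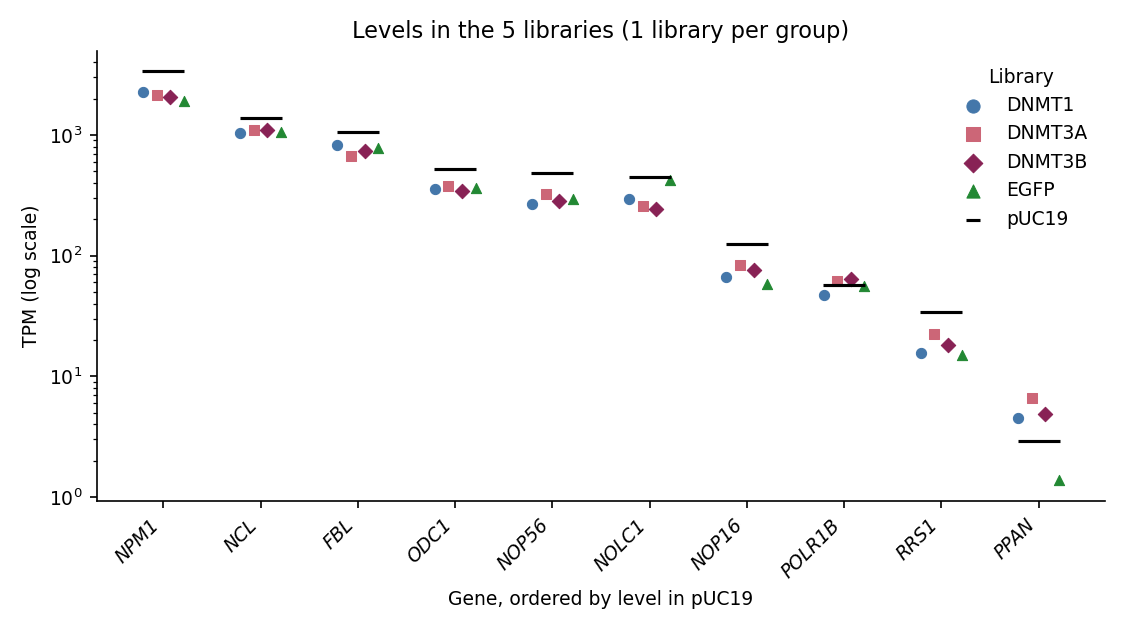
Level in TPM (log axis) of each of the 10 genes in the 5 libraries, 1 library a group, ordered by level in pUC19 (black bar). The bar lies above all 4 fusion points in 8 genes, and among the fusion points in POLR1B and PPAN.

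The 3 most abundant were the nucleolar proteins NPM1, NCL and FBL. NPM1, nucleophosmin, a nucleolar chaperone of ribosome assembly (chr5:170814120-170838814, plus strand, GRCh37), was at 3372 TPM in pUC19, 2279 TPM in DNMT1, 2125 TPM in DNMT3A, 2051 TPM in DNMT3B and 1915 TPM in EGFP. Its fusion levels lay close together and all below pUC19, at log2 TPM ratios of -0.57 to -0.82, with EGFP the lowest. The NPM1 transcript had the lowest GC content of the 10, at 38.3%, and with an offset for GC content and length its fold change in the joint fit moved from -0.63 to -0.43.

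NCL, nucleolin, which binds nascent rRNA precursor (chr2:232318242-232348352, minus strand), was at 1374 TPM in pUC19 and at 1036, 1089, 1098 and 1056 TPM in DNMT1, DNMT3A, DNMT3B and EGFP. The fusions spanned only 0.08 on the log2 scale, the narrowest range of the 10, and lay 0.32 to 0.41 below pUC19. FBL, fibrillarin, the methyltransferase of box C/D snoRNPs (chr19:40325098-40337019, minus strand), was at 1050 TPM in pUC19 and at 819, 667, 742 and 782 TPM in the same order of fusions. DNMT3A was lowest here, with pUC19 1.58-fold higher, and DNMT1 nearest, with pUC19 1.28-fold higher.

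NOP56, a core protein of box C/D snoRNPs (chr20:2633239-2639039, plus strand), was at 481 TPM in pUC19 and at 268, 324, 286 and 293 TPM in DNMT1, DNMT3A, DNMT3B and EGFP. All fusions were well below pUC19, by 1.49-fold to 1.79-fold, and DNMT1 was lowest. The gene hosts snoRNAs in its introns, of which those with a row had at most 7 reads in any library.

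NOLC1, a nucleolar chaperone of snoRNPs and of polymerase I (chr10:103911933-103923628, plus strand), followed another pattern. It was at 451 TPM in pUC19 and 422 TPM in EGFP, but at 296 TPM in DNMT1, 258 TPM in DNMT3A and 242 TPM in DNMT3B. EGFP thus stood near the control, at a log2 TPM ratio of -0.10 (95% interval -0.12 to -0.07, counting error only), and the 3 methyltransferase fusions stood below it. Against EGFP the log2 TPM ratios were -0.51 (-0.54 to -0.48) for DNMT1, -0.71 (-0.74 to -0.67) for DNMT3A and -0.80 (-0.83 to -0.76) for DNMT3B, all short of the 2-fold threshold.

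NOP16 and RRS1, which act in assembly of the large subunit, were the lowest of the 10 in the joint fit, although NOLC1, NPM1 and FBL lay further below pUC19 in DNMT3A, and NOLC1 and NOP56 lay below NOP16 in DNMT3B. NOP16 (chr5:175810949-175815928, minus strand) was at 125 TPM in pUC19 and at 67.1, 83.0, 75.4 and 57.8 TPM in DNMT1, DNMT3A, DNMT3B and EGFP, from 698 to 2128 reads. EGFP was lowest and DNMT3A highest of the fusions. Exons of NOP16 overlap those of HIGD2A and ARL10 on the opposite strand, and their own levels went apart. HIGD2A was at 290 TPM in pUC19 and 300 to 387 TPM in the fusions, while ARL10 was at 20.9 TPM in pUC19 and lower in all 4 fusions, at 14.2 to 18.7 TPM. The part of overlapping reads in the NOP16 values was not tested.

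Exons of RRS1 overlap those of an unnamed protein-coding gene on the same strand. That gene had no row, and its part in the RRS1 values was not tested. RRS1 was at 33.8 TPM in pUC19, from 930 reads, and at 15.6, 22.3, 18.1 and 14.9 TPM in DNMT1, DNMT3A, DNMT3B and EGFP, from 291 to 490 reads. As with NOP16, EGFP was lowest, DNMT1 next and DNMT3A highest. Their order among the fusions by TPM was EGFP, DNMT1, DNMT3B, DNMT3A in both genes, while DNMT3B was lowest for MYC. The CPM intervals of DNMT1 and DNMT3B overlapped in both genes, and for RRS1 the interval of EGFP overlapped both of these. The order below DNMT3A was thus not fully resolved by the counts.

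ODC1, ornithine decarboxylase, the first enzyme of polyamine synthesis and a classical MYC target (chr2:10580094-10588453, minus strand), was at 517 TPM in pUC19 and at 353, 380, 340 and 361 TPM in DNMT1, DNMT3A, DNMT3B and EGFP. The fusions were alike, within 0.16 on the log2 scale, and pUC19 was 1.36-fold to 1.52-fold higher. ODC1 was 1 of 2 genes among the 10, with NOLC1, that shared with MYC the lowest level in DNMT3B. DNMT1 was lowest for 3 genes, EGFP for 4 and DNMT3A for 1.

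POLR1B, the second largest subunit of RNA polymerase I (chr2:113299492-113337395, plus strand), was not lower across the fusions. It was at 57.6 TPM in pUC19, 47.0 TPM in DNMT1, 61.3 TPM in DNMT3A, 63.4 TPM in DNMT3B and 56.4 TPM in EGFP. DNMT1 was below pUC19. DNMT3A and DNMT3B were slightly above on the TPM scale, at log2 ratios of 0.09 (0.03 to 0.15) and 0.14 (0.08 to 0.20). The test of read totals was not passed (adjusted exact p = 0.0614 and 0.179). This depended on scaling, since with TMM the adjusted exact p was 0.000568 and 1.42e-05. The interval of the EGFP ratio, -0.09 to 0.03 on the log2 scale, included 0.

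PPAN, a large subunit assembly factor (chr19:10217038-10222688, plus strand), was the lowest and the most uneven of the 10. It was at 2.91 TPM in pUC19 (81 reads), 4.54 TPM in DNMT1 (98 reads), 6.66 TPM in DNMT3A (148 reads), 4.88 TPM in DNMT3B (96 reads) and 1.37 TPM in EGFP (27 reads). The methyltransferase fusions were above pUC19 and EGFP below. These values are uncertain, because PPAN shares exons with the readthrough gene PPAN-P2RY11 and with P2RY11 and reads that fit more than 1 transcript were discarded. Between 17.2% and 23.9% of its transcript was covered, and the readthrough gene had at most 4 reads and P2RY11 at most 5 in a library.

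Each fusion was then compared with pUC19 by an exact test of read totals, with a gene called at an adjusted p of at most 0.001 and a TPM ratio of at least 2-fold. With 1 library a group this test compares libraries and not conditions. MYC was called lower in all 4 fusions. Of 40 comparisons of the 10 genes, 5 were called, where the share of all genes called was 5.16% in DNMT1, 9.36% in DNMT3A, 8.76% in DNMT3B and 5.70% in EGFP.

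RRS1 was called lower in DNMT1, at a log2 TPM ratio of -1.12 (95% interval -1.31 to -0.94, adjusted exact p = 4.46e-35), and in EGFP, at -1.17 (-1.37 to -0.99, adjusted exact p = 2.08e-39). NOP16 was called lower in EGFP, at -1.11 (-1.24 to -0.99, adjusted exact p = 1.97e-81). PPAN was called higher in DNMT3A, at 1.17 (0.79 to 1.60, adjusted exact p = 8.66e-09), and lower in EGFP, at -1.03 (-1.77 to -0.44, adjusted exact p = 0.000803). No gene of the 10 was called in DNMT3B, where 8.76% of all genes were. The median log2 ratio of the 10 was nevertheless -0.66 in DNMT3B, against -0.56 in DNMT1, -0.58 in DNMT3A and -0.62 in EGFP. With 1.5-fold in place of 2-fold the calls numbered 4 in DNMT1, 6 in DNMT3A, 6 in DNMT3B and 5 in EGFP. At 1.5-fold, 2874 of 19022 genes tested were called in DNMT1, 4273 of 18970 in DNMT3A, 4132 of 18962 in DNMT3B and 3091 of 19125 in EGFP. With an assumed coefficient of variation of 0.2 between libraries, none of the 10 was left in any fusion.

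**Figure D3:**
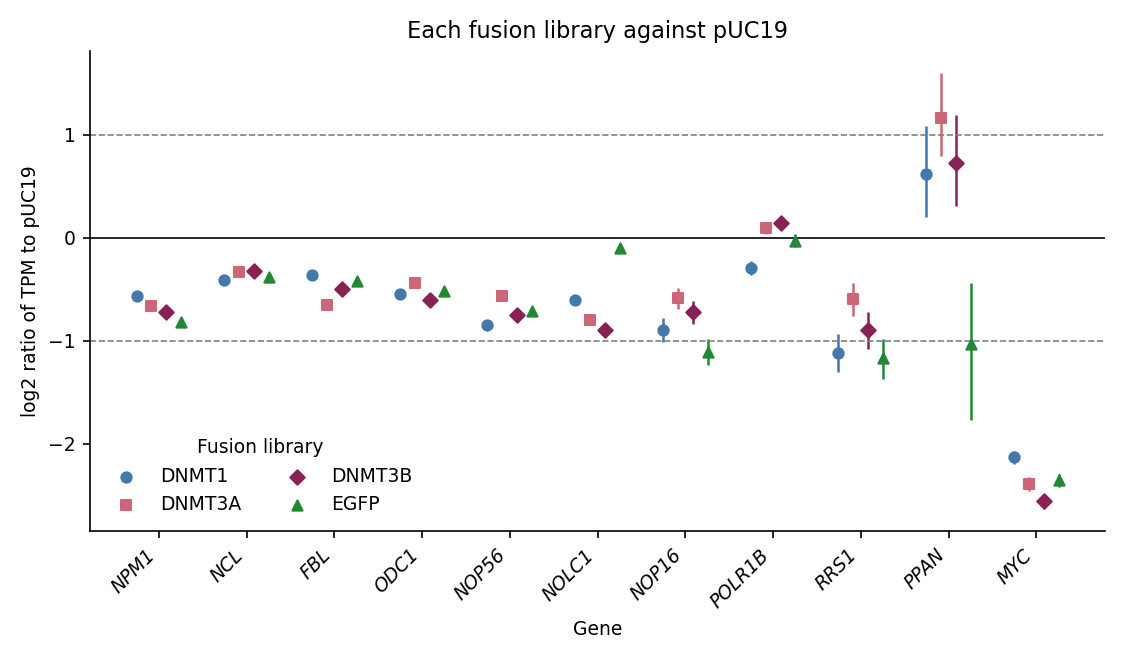
Log2 ratio of TPM in each fusion library to pUC19 for the 10 genes and MYC, with 95% intervals of counting error as vertical lines and 2-fold marked by dashed lines. MYC lies between -2.13 and -2.56, most of the 10 genes between 0 and -1, and PPAN on both sides of 0 with the widest intervals.

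Against EGFP, which carries dCas9, BFP and the same sgRNAs but no methyltransferase, the called share was 1.44% of all genes for DNMT1, 3.97% for DNMT3A and 3.50% for DNMT3B. Of the 60 comparisons of the 10 genes in the 6 pairs of fusions, 3 were called, all of PPAN against EGFP. The log2 ratios were 1.66 in DNMT1 (adjusted exact p = 5.56e-09), 2.20 in DNMT3A (adjusted exact p = 1.24e-17) and 1.76 in DNMT3B (adjusted exact p = 4.68e-09). The other genes differed by less than 2-fold between any of the fusions.

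To weigh the shared difference against the spread between fusions, the 4 fusions were fitted together against pUC19 with edgeR's quasi-likelihood test, in which the pUC19 library is assumed to vary like the fusions. MYC fell by 2.29 on the log2 scale (SE 0.20, adjusted p = 0.00936, edgeR). None of the 10 genes passed an adjusted p under 0.05 with edgeR, where 0.737% of all genes did. At an unadjusted p under 0.05 by edgeR, 5 were lower and 0 higher, beside 9.12% lower and 8.87% higher of all genes. A missed threshold here does not show that a gene was unchanged. With DESeq2, where 7.21% of genes passed, NOP56 (-0.67, adjusted p = 0.0239) and RRS1 (-0.88, adjusted p = 0.0471) were called lower.

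The log2 fold changes in the edgeR fit were below 0 for 8 genes and above 0 for 2, with a median of -0.50, against 0.03 over all genes tested. RRS1 was at -0.88 (SE 0.26, adjusted p = 0.133, edgeR) and NOP16 at -0.77 (SE 0.23, adjusted p = 0.145, edgeR). NOP56 was at -0.67 (SE 0.17, adjusted p = 0.10, edgeR) and NPM1 at -0.63 (SE 0.21, adjusted p = 0.174, edgeR). These 4 and ODC1 were the genes with an unadjusted p under 0.05, and ODC1 was at -0.48 (SE 0.17, adjusted p = 0.20, edgeR). The remaining genes were NOLC1 at -0.52, FBL at -0.43, NCL at -0.31, POLR1B at 0.03 and PPAN at 0.64, with adjusted p of 0.287 to 0.947 by edgeR.

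A wider set of 114 ribosome biogenesis factors without the 10 genes was read in the same fit. Of these, 89 were below 0 and 25 above 0, beside 7623 of all 16001 genes below 0, and the median was -0.27. By edgeR 3 (2.63%) were called lower, beside 0.644% of all genes, and 0 higher. In 76 of the 114 (66.7%) pUC19 lay above all 4 fusions in CPM, beside 34.6% of all genes. At an unadjusted p under 0.05 by edgeR, 31 (27.2%) were lower and 1 higher, beside 9.12% lower and 8.87% higher of all genes. DESeq2 called 10 (8.77%) lower and 0 higher, beside 3.44% of all genes lower.

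By role, 1 of 15 polymerase I genes was called, TAF1D, a subunit of the promoter selectivity factor SL1, at 149 TPM in pUC19 and 54.7 to 65.6 TPM in the fusions (-1.26, adjusted p = 0.0265, edgeR). The median of that list was -0.07, and UBTF, which opens rDNA for polymerase I, was at 87.4 TPM in pUC19 and 97.3 to 132 TPM in the fusions (0.45, adjusted p = 0.269, edgeR). Of 15 snoRNP genes, with a median of -0.30, NUFIP1, a snoRNP assembly factor, was called lower, at 36.8 TPM in pUC19 and 15.7 to 17.8 TPM in the fusions (-1.08, adjusted p = 0.0481, edgeR). Thus 1 gene passed in each of these lists. Of the 15 polymerase I genes, 8 were below 0 and 7 above, and of the 15 snoRNP genes, 12 were below 0 and 3 above.

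None of 40 small subunit genes was called by edgeR (10 lower and 0 higher at an unadjusted p under 0.05, and 1 lower by DESeq2). Their median was nevertheless -0.40, and pUC19 lay highest in 29 (72.5%), beside 34.6% of all genes. Among the 40 was NAT10, an rRNA acetyltransferase, with 120 TPM in pUC19 and 65.9 to 72.1 TPM in the fusions (-0.75, adjusted p = 0.0897, edgeR). Of 44 large subunit genes, with a median of -0.23, CEBPZ was called lower, at 92.9 TPM in pUC19 and 40.5 to 44.9 TPM in the fusions (-1.05, adjusted p = 0.0407, edgeR). The calls of NUFIP1 and CEBPZ were lost when any 1 fusion was left out, at adjusted p of 0.0527 to 0.0731 by edgeR, and with the offset for GC content and length, at adjusted p of 0.0786 (NUFIP1) and 0.0547 (CEBPZ).

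**Figure D4:**
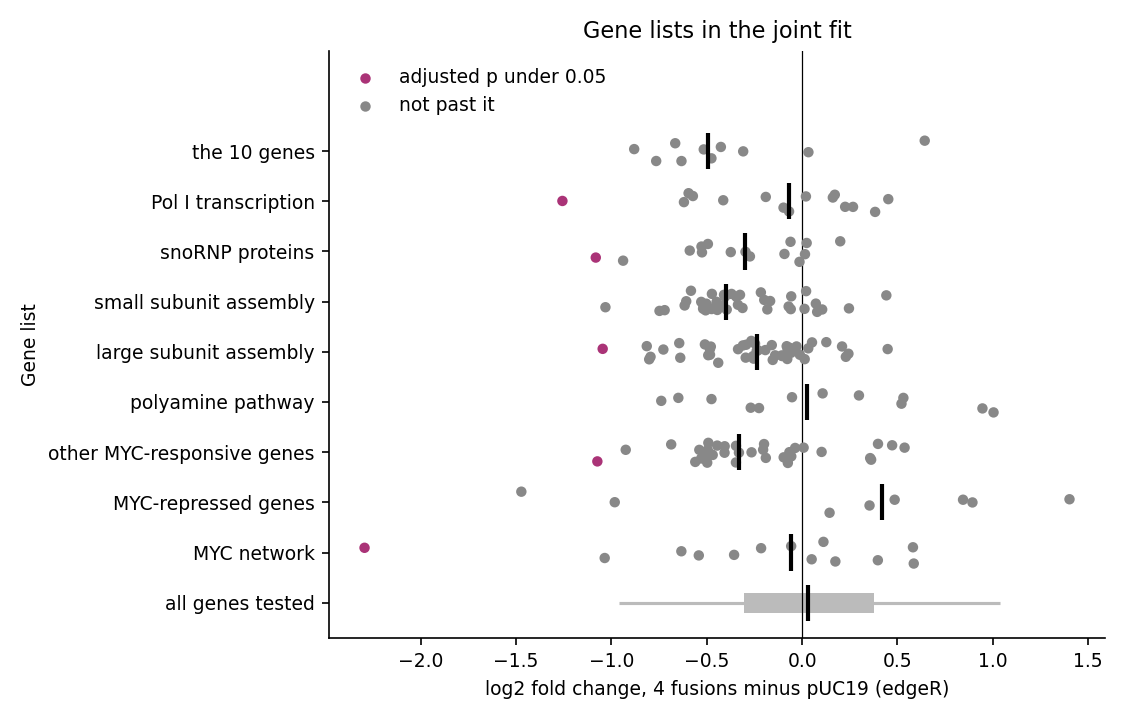
Log2 fold change of each gene in the joint edgeR fit of 4 fusions against pUC19, by gene list (points, spread vertically at random within a list), with list medians as vertical bars and, for all genes, a box from the 25th to the 75th percentile and a line from the 5th to the 95th. The 10 genes have a median of -0.50, with no point past the threshold, and MYC is the point farthest to the left, at -2.29.

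The 114 genes were lower in some fusion libraries more than in others. The median log2 ratio of TPM + 0.1 to pUC19 was -0.55 in DNMT1, -0.15 in DNMT3A, -0.19 in DNMT3B and -0.45 in EGFP, while over all genes it was -0.14, -0.04, -0.03 and 0.00. Of the 114, 110 were below 0 in DNMT1, 74 in DNMT3A, 86 in DNMT3B and 99 in EGFP, and with TMM scaling 104, 67, 69 and 95. Before TMM scaling these were 96.5%, 64.9%, 75.4% and 86.8%, beside 61.7%, 52.4%, 52.1% and 49.8% of all genes. MYC was at 73.8 TPM in DNMT3A, 65.5 TPM in DNMT3B, 75.5 TPM in EGFP and 88.2 TPM in DNMT1. Among the fusions, DNMT1 had the highest MYC level and the lowest median of the 114 (-0.55), and DNMT3B the lowest MYC level and a median of -0.19. How far these genes followed MYC from fusion to fusion was not tested.

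For the 10 genes themselves the medians were close to each other, at -0.56 in DNMT1, -0.58 in DNMT3A, -0.66 in DNMT3B and -0.62 in EGFP. With the median of all genes in each library subtracted, they were -0.42, -0.54, -0.63 and -0.62, so the shift was smallest in DNMT1. A fit of DNMT3A and DNMT3B against DNMT1 and EGFP treated the fusions of each side as replicates, although they are different constructs. By edgeR 11.0% of all genes were called in this fit. Of the 114, 22 (19.3%) were called, 19 higher and 3 lower, with a median of 0.22. No gene of the 114 was called there without DNMT3A or without DNMT3B, where 0.114% and 0.336% of all genes were called. Without EGFP 34 of the 114 (29.8%) were called, beside 24.7% of all genes, and without DNMT1 45 (39.5%), beside 22.5%, so both counts moved with the libraries that entered. Of the 10 genes, NOLC1 was called lower, at -0.56 (SE 0.15, adjusted p = 0.0386, edgeR), and without DNMT3A or DNMT3B its adjusted p was 0.29 and 0.324. MYC was at -0.29 in this fit (adjusted p = 0.241, edgeR).

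**Figure D5:**
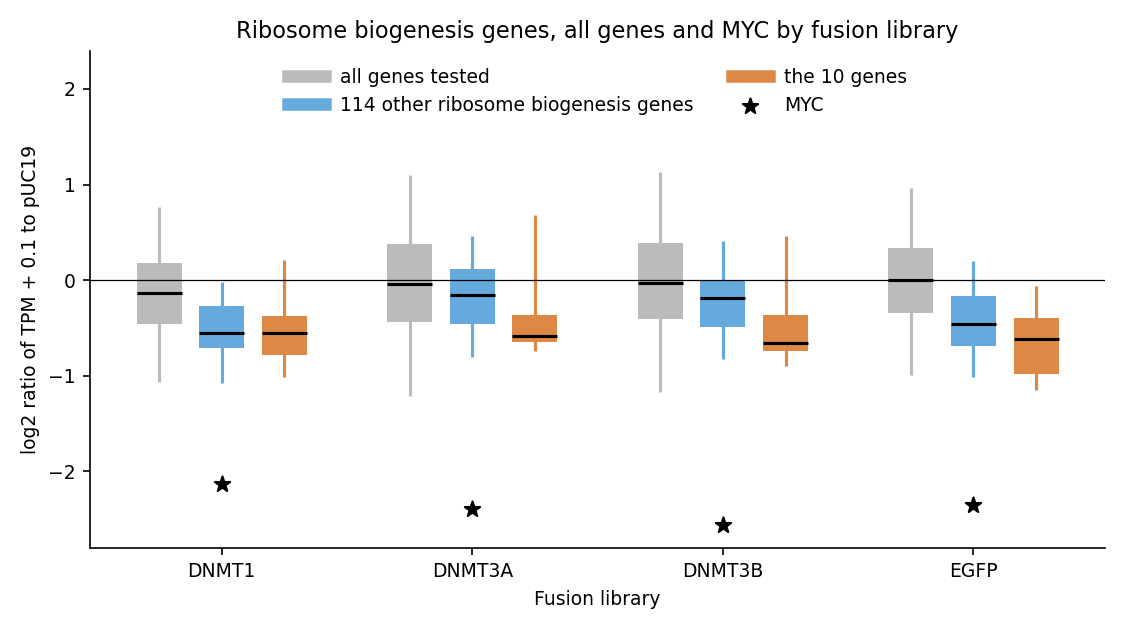
Log2 ratio of TPM + 0.1 to pUC19 in each fusion library for all genes tested, the 114 other ribosome biogenesis genes, the 10 genes and MYC (star). Boxes run from the 25th to the 75th percentile, vertical lines from the 5th to the 95th, and black bars mark medians, which for the 114 genes are -0.55, -0.15, -0.19 and -0.45 from left to right.

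E-box matches were set beside these changes. Of the 114 genes, 113 had a scanned window and 73 of them (64.6%) held CACGTG, beside 31.1% of the windows of all genes tested. For these 73 the median log2 fold change in the joint fit was -0.31, against -0.21 for the 40 without a match. Over all genes the medians were -0.02 with a match and 0.05 without. Windows were not matched for GC content, and its part in these shares and medians was not tested. Among the 10 genes, 6 of the 7 with a match were below 0, from RRS1 at -0.88, and POLR1B was at 0.03. Of the 3 without a match, NOP16 (-0.77) and NOLC1 (-0.52) were below 0 and PPAN was at 0.64.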

How the data were processed

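Poly(A) RNA of 5 HEK293T libraries, 1 per group, was fragmented, and cDNA of about 240 bp was amplified over 12 PCR cycles and sequenced on an Ion Proton. The authors aligned filtered reads with tmap to RefSeq RNA of hg19 (GRCh37) with up to 3 mismatches and kept unique reads; the tmap version is not given in the sources used here. The deposited read count per gene is whole and was not normalized by the authors. The TPM deposited by the authors is that count divided by gene length and scaled, and was recomputed from the counts with the same result. The deposited coverage in percent was read as the covered part of a transcript. A gene without a row was set to 0. Counting unique reads lowers genes that share sequence.

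Groups were taken from sample titles. Pairs of libraries were compared by an exact binomial test of counts (two-sided, conditional on both totals), and p-values were adjusted by Benjamini-Hochberg over all genes detected in the pair; a call needed an adjusted p of at most 0.001 and 2-fold in TPM + 0.1, the thresholds of the study, whose own test is not given in the sources used here. Since the test uses read totals and the ratio TPM, very small differences can disagree between them. Intervals are 95% exact (Clopper-Pearson) and cover counting error only. edgeR 4.0.16 (R 4.3.3; TMM, filterByExpr, quasi-likelihood test) was fitted for the 4 fusions against pUC19 and for the pair DNMT3A and DNMT3B against the pair DNMT1 and EGFP, with calls at an adjusted p under 0.05; SEs were derived from the F statistic. The tests were checked on simulated data with known changes. At the fitted spread the fit against pUC19 recovered 4-fold changes but not 1.5-fold ones, and sizes between these were not simulated.

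The 10 genes and all lists were chosen with earlier results of these data known. The genes named are the 10, MYC, genes that overlap them, and in each list up to 2 genes per direction with the largest change past the threshold in the fit of 4 fusions against pUC19, or, where none passed, the 1 gene whose smallest ratio over the fusions was largest in that direction (minimum 5 TPM in pUC19 or in every fusion). Gene positions and start sites are from GENCODE v44 on GRCh37. The alternatives tried included TMM scaling, a pseudocount of 1 TPM, totals without DNMT1, DNMT3A, DNMT3B and PLAU, thinning to the smallest total, a minimum of 1 TPM, an adjusted p of at most 0.05, 1.5-fold, an assumed coefficient of variation of 0.2, DESeq2 1.42.0, median-ratio size factors, no filter, an offset for GC content and length (loess, span 0.3) and leaving out each fusion.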

Additional observations from a re-analysis of the deposited data

Results flagged for a closer look

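NOLC1 was lower in the DNMT3A and DNMT3B fusions than in the DNMT1 and EGFP fusions, at a log2 fold change of -0.56 (adjusted p = 0.0386, edgeR; 4.54e-05 to 0.324 over the alternatives). The fit treated DNMT3A and DNMT3B as replicates, and DNMT1 and EGFP likewise, although all are different constructs. It called 11.0% of all genes. NOLC1 levels of 242 and 258 TPM in DNMT3B and DNMT3A were below the 296 TPM of DNMT1 and the 422 TPM of EGFP. DNMT1 lay nearer to DNMT3A than to EGFP.

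PPAN differed from EGFP in each methyltransferase fusion, at log2 ratios of 1.66 in DNMT1, 2.20 in DNMT3A and 1.76 in DNMT3B, from 27 reads in EGFP and 96 to 148 in the others. These differences passed the exact test between libraries. The covered part of its transcript was 17.2% in EGFP and 23.6% to 23.9% in the other 3. The part of the shared readthrough sequence in this difference was not tested.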

How the results depend on the processing

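No paired analysis was possible because the labels give no replicate numbers and each group has 1 library.

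With a pseudocount of 1 TPM, 540 genes were called in DNMT1, 1143 in DNMT3A and 648 in EGFP against pUC19 (982, 1776 and 1090 as reported), and 0 of the 10 genes in DNMT3A. With an assumed coefficient of variation of 0.2, the counts were 39, 136, 117 and 59 genes for DNMT1, DNMT3A, DNMT3B and EGFP, with 0 of the 10 in each. With 1.5-fold they were 2874, 4273, 4132 and 3091, with 4, 6, 6 and 5 of the 10. The call of PPAN in EGFP was lost with TMM scaling (adjusted p = 0.0011, exact test), with thinning (0.00243) and with the pseudocount of 1 TPM.

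For the 4 fusions against pUC19, DESeq2 called 1041 genes, 2 of the 10 and 17 genes of the lists, and no filter gave 252 genes and 8 of the lists, against 118 genes reported with edgeR. Leaving out a fusion gave 65 to 95 genes and 0 of the 10, and the call of LDHA was lost without DNMT3A, DNMT3B or EGFP (adjusted p = 0.0514 to 0.0744, edgeR). In the fit of DNMT3A with DNMT3B against DNMT1 with EGFP, no filter gave 1052 genes and 0 of the 10 against 1694 and 1, and leaving out a fusion gave 18 to 3850 genes, 0 to 3 of the 10 and 0 to 45 of the 114 list genes. The counts of the 114 in this fit were added after seeing the data. Small fold changes reversed: POLR1B against pUC19 without DNMT3B (-0.025 to 0.084 over the fusions left out), and in the second fit NPM1 with the GC offset (0.0045) and without DNMT1 (-0.25 to 0.14), ODC1 without DNMT1 or DNMT3B (-0.13 to 0.042), NOP56 without DNMT3A (-0.032 to 0.16) and NCL without EGFP (-0.043 to 0.066). The cause of these changes was not tested. Leaving out pUC19, the only control, leaves no comparison.

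Beside these, 68 of 108 counts stayed within 1.5 times, and 327 of 352 exact tests and 237 of 272 fitted values of the genes named kept direction and call. Depth limits PPAN most, with 27 to 148 reads a library.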

Other observations

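Other lists of MYC-linked genes were read in the fit of the 4 fusions against pUC19. Of 35 further genes known to respond to MYC, 28 were below 0, with a median of -0.33, and 1 was called, LDHA, lactate dehydrogenase A, at 1073 TPM in pUC19 and 449 to 563 TPM in the fusions (-1.07, adjusted p = 0.0444, edgeR). SLC19A1, the reduced folate carrier, went the other way without passing, at 64.8 TPM in pUC19 and 81.8 to 98.0 TPM in the fusions (0.47, adjusted p = 0.256, edgeR). Of 8 genes known as repressed by MYC, none was called by edgeR (4 higher and 2 lower at an unadjusted p under 0.05, and 1 higher and 2 lower by DESeq2), and their median was 0.42. CDKN1A, the cell cycle inhibitor p21, was at 20.1 TPM in pUC19 and 42.7 to 65.0 TPM in the fusions (1.40, adjusted p = 0.0627, edgeR), while GADD45B was at 22.7 TPM in pUC19 and 6.31 to 11.4 TPM in the fusions (-1.47, adjusted p = 0.0921, edgeR).

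Around ODC1, none of the 12 other polyamine genes was called by edgeR (3 higher and 3 lower at an unadjusted p under 0.05, and 1 higher by DESeq2), and their median was 0.03. SMOX, spermine oxidase, was at 17.6 TPM in pUC19 and 22.3 to 40.5 TPM in the fusions (1.00, adjusted p = 0.153, edgeR), and SAT1, which acetylates spermidine and spermine, was at 57.8 TPM in pUC19 and 34.0 to 36.9 TPM in the fusions (-0.65, adjusted p = 0.158, edgeR). Of 13 genes of the MYC and MAX network, MYC was the 1 called, the median was -0.06, and MXD4, a partner of MAX, was at 46.7 TPM in pUC19 and 60.5 to 74.4 TPM in the fusions (0.58, adjusted p = 0.217, edgeR).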
